A study of Homo sapiens with 9 samples.

Results

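The RNA levels of 10 genes that make up the transcriptional end of the Hippo pathway were followed in 3 human breast epithelial cell lines of a single lineage, out of 62666 genes in the deposited table. The rule that defines the set names genes by function and uses no measured value, although the set was put together with earlier results of these data known. It holds the coactivators YAP1 and WWTR1, the DNA-binding factors TEAD1, TEAD2, TEAD3 and TEAD4, and the target genes CCN1, CCN2, ANKRD1 and AMOTL2. MCF10A comes from breast epithelium and does not form tumours, MCF10AT1 is its derivative carrying an activated HRAS gene and stands for a premalignant state, and MCF10Ca1a is a carcinoma-forming line obtained from MCF10AT1 grown in mice. Each line had 3 libraries of polyadenylated RNA, 9 in all. No line received a treatment, and every medium held insulin, epidermal growth factor, hydrocortisone and cholera toxin. MCF10A and MCF10Ca1a grew in 5% horse serum and MCF10AT1 in 2.5%, so serum and line cannot be told apart wherever MCF10AT1 enters a comparison. The labels do not say whether the libraries of a line came from separate cultures, so p-values measure only the spread between these libraries, which may be technical. The series sequenced the lines to ask how gene expression changes along breast cancer progression, and the comparisons here ask it of the YAP and TEAD genes. Cell density at harvest is not given in the sources used here.

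YAP1 and WWTR1, whose protein is called TAZ, have no DNA-binding domain of their own and act on genes by joining a TEAD factor. In the Hippo pathway the kinases STK3 and STK4 activate LATS1 and LATS2, which phosphorylate YAP and TAZ and so keep them out of the nucleus. Signalling through the pathway is therefore set largely at the protein level, and the RNA level of a coactivator does not measure its activity. In mammary epithelial cells YAP and TAZ are known for responding to cell crowding and to the stiffness of the surroundings, and TAZ for its link to the basal cell state.

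TEAD factors bind the letters GGAATG, or CATTCC when read on the other strand, and the promoters of the members were read for these letters because the target genes are defined by TEAD control. RefSeq promoter windows on GRCh38.p14, each of 300 bases with 250 before the start of transcription and 50 after it, were given for 7 of the 10 genes, 10 windows in all. CCN1, TEAD1 and TEAD4 were not among them. The first 249 bases of the CCN2 window, chr6:131951374-131951622 on the minus strand, held the letters 3 times, shown in capitals. They stop where the gene begins in GENCODE 29, which is not the RefSeq start.
CCN2: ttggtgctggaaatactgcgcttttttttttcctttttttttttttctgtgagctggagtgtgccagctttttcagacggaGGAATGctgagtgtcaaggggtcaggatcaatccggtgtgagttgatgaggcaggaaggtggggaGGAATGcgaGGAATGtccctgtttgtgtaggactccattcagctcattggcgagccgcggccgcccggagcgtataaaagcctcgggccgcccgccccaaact
The first bases of the matches lay at -169, -104 and -95 from the RefSeq start, from which all positions of matches are counted. ANKRD1 held 2 matches, at -220 and -128, and AMOTL2 held 1 in CATTCC orientation at -69 in 1 of its 2 windows. YAP1 itself held 1 match at -162. They are shown as stretches of 30 bases in the direction of the gene.
ANKRD1, chr10:90921290-90921319: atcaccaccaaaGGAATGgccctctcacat
ANKRD1, chr10:90921198-90921227: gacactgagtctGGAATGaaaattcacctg
AMOTL2, chr3:134374499-134374528: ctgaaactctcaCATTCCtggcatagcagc
YAP1, chr11:102110273-102110302: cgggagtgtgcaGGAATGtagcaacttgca
No match was found in the windows of WWTR1, TEAD2 and TEAD3. Of all 35116 RefSeq windows of this length, 14.0% held at least 1 match on either strand, 1.37% at least 2 and 0.128% at least 3. A match describes letters in a window and not a bound site.

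Estimated counts were deposited per gene, with library totals of 62.9 to 69.5 M (mega-counts) for MCF10A and MCF10AT1 and 32.9 to 35.2 M for MCF10Ca1a. Levels of a gene across lines are given as CPM, counts scaled to a common library size with TMM factors, and levels of different genes within a line as deposited TPM, which takes transcript length into account. Differences are log2 fold changes with a standard error (SE) from edgeR's quasi-likelihood test, called at a Benjamini-Hochberg adjusted p under 0.05 over all 17910 genes that passed a filter on low counts. Of the 10 members 9 passed it and ANKRD1 did not. Each pair of lines differed widely, so a call by itself says little: 61.6% of all genes tested were called in MCF10AT1 against MCF10A (29.8% higher, 31.8% lower), 78.4% in MCF10Ca1a against MCF10AT1 (38.0% higher, 40.3% lower) and 80.9% in MCF10Ca1a against MCF10A (39.0% higher, 41.9% lower). Calls of at least 2-fold made up 18.0%, 37.7% and 42.9% of genes tested. On log2(TPM + 1) with limma the share of higher genes among those called moved from 48.4% to 36.2%, from 48.5% to 61.6% and from 48.2% to 55.0% in the same order, and the median of all genes on log2(TPM + 0.1) lay at -0.11, 0.21 and 0.10. No called member changed sign on either scale. MCF10A replicate 1 gave the highest CPM of its line for 8 of the 9 members tested, and leaving it out changed the call of CCN1 alone among them.

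Markers of mammary epithelium were present in every library, with 12 of 13 at 10 or more counts throughout MCF10A and 13 of 13 in the other lines; KRT19 was the exception in MCF10A. Their summed level was 4946 to 6740 TPM in MCF10A, 7056 to 7840 in MCF10AT1 and 6900 to 7105 in MCF10Ca1a. Fibroblast markers summed to 6.43 to 7.23, 27.7 to 31.5 and 1.94 to 2.33 TPM in that order, immune markers to 8.35 to 13.0, 2.65 to 2.71 and 30.2 to 33.1 TPM, and endothelial markers to 0.674 to 0.901, 0.868 to 1.32 and 15.6 to 20.8 TPM. The highest of these sums were carried by DCN, CD68 and PECAM1. Other genes of the same lists went the other way. COL1A1 had 536 to 642, 203 to 228 and 169 to 195 counts in the order of the lines, and KDR had 30 to 42, 23 to 32 and 0 to 1. CD3E was at 0, PTPRC and COL3A1 reached at most 2 counts, and CDH5 and COL1A2 at most 1. The part of all these markers in the values of the members was not tested. In bulk RNA a change in the share of cells that express a gene and a change in RNA per cell cannot be told apart.

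Of the members, 6 were called in MCF10AT1 against MCF10A, 4 higher and 2 lower, of which 2 by at least 2-fold. In MCF10Ca1a against MCF10AT1 8 were called, 3 higher and 5 lower, of which 4 by at least 2-fold. In MCF10Ca1a against MCF10A 8 were called, 3 higher and 5 lower, of which 5 by at least 2-fold. The median log2 change of the 9 members tested was 0.14, -0.75 and -0.61, against -0.00, -0.04 and -0.05 for all genes tested, and the median size of change was 0.29, 0.87 and 1.10, against 0.38, 0.76 and 0.84. The called shares lie near the background of each pair of lines, so what follows concerns which member moved which way and how far. The 3 lines share libraries between comparisons, and the values of each comparison are set side by side only.

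**Figure D1:**
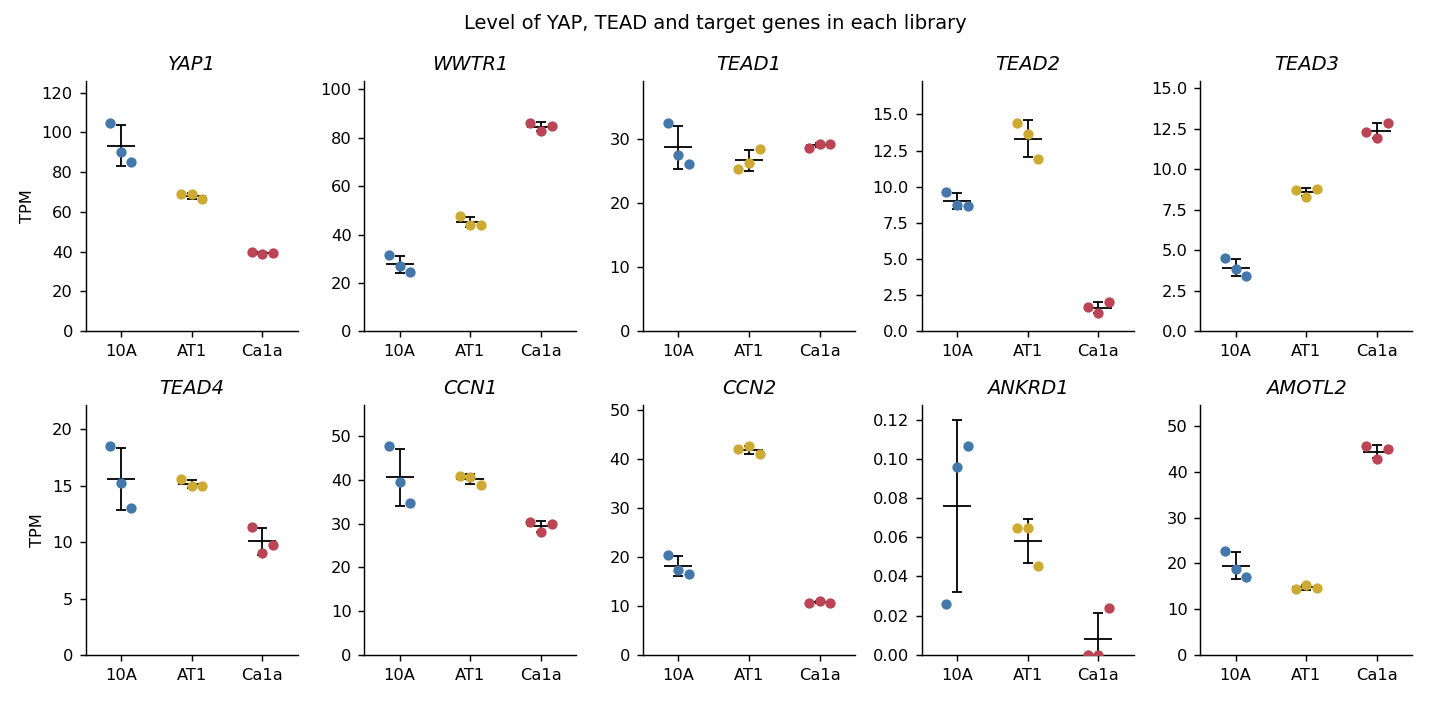
TPM (y axis, linear, from 0, own scale per gene) of the 10 members in each library of MCF10A (10A), MCF10AT1 (AT1) and MCF10Ca1a (Ca1a); points are libraries, the horizontal bar is the mean and the whisker ± 1 SD over 3 libraries, cut at 0. YAP1 stepped down from line to line while WWTR1 and TEAD3 stepped up, CCN2 was highest in MCF10AT1, and ANKRD1 reached at most 0.106 TPM.

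The coactivators moved in opposite directions. YAP1 measured 268, 246 and 242 CPM in the MCF10A libraries, 205, 209.6 and 205 CPM in MCF10AT1, and 101, 97.9 and 99.1 CPM in MCF10Ca1a. The 3 lines did not overlap and the order was the same at each step. By edgeR's quasi-likelihood test YAP1 fell by 0.29 on the log2 scale in MCF10AT1 against MCF10A (SE 0.0520, adjusted p = 3.03e-04) and by 1.06 in MCF10Ca1a against MCF10AT1 (SE 0.0534, adjusted p = 3.60e-10). Over the whole span YAP1 was 2.54-fold lower in MCF10Ca1a than in MCF10A (log2 -1.34, SE 0.0536, edgeR adjusted p = 2.21e-11).

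WWTR1 measured 72.6, 64.5 and 64.5 CPM in MCF10A, 122, 121 and 124 CPM in MCF10AT1, and 149, 144 and 146 CPM in MCF10Ca1a. Again no library of a line overlapped with those of another, now in rising order. WWTR1 was 1.82-fold higher in MCF10AT1 than in MCF10A (log2 0.86, SE 0.0546, edgeR adjusted p = 1.07e-08). The step from MCF10AT1 to MCF10Ca1a was smaller in counts, at 1.19-fold (log2 0.25, SE 0.0542, edgeR adjusted p = 6.80e-04). The size of this step depended on how transcript length entered: it was 0.61 on the authors' length-scaled counts and 0.90 on log2(TPM + 0.1), called each time.

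Per length, the make-up of the pair shifted from YAP1 towards WWTR1. YAP1 and WWTR1 together held 121 ± 13.9 TPM (SD, n = 3) in MCF10A, 113 ± 3.16 in MCF10AT1 and 124 ± 2.29 in MCF10Ca1a, and the range of MCF10A overlapped with those of the other lines. YAP1 made up 77.1% ± 0.438 of that sum in MCF10A, 60.1% ± 1.02 in MCF10AT1 and 31.7% ± 0.225 in MCF10Ca1a (SD, n = 3 each). WWTR1 was thus the more abundant coactivator RNA in MCF10Ca1a and YAP1 in the other lines. Part of the WWTR1 level in MCF10Ca1a was assigned to minor transcripts, some of which are described further on. Counting the main coding transcript alone also leaves out minor transcripts annotated as coding. With the main coding transcript WWTR1-201 alone the YAP1 share was 78.6% ± 0.350, 62.0% ± 0.401 and 41.3% ± 0.155 (SD, n = 3), in the same order. The sum counted that way was 119 ± 13.6 TPM in MCF10A, 109.8 ± 1.79 in MCF10AT1 and 95.3 ± 1.40 in MCF10Ca1a, where every library lay below those of the other lines.

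**Figure D2:**
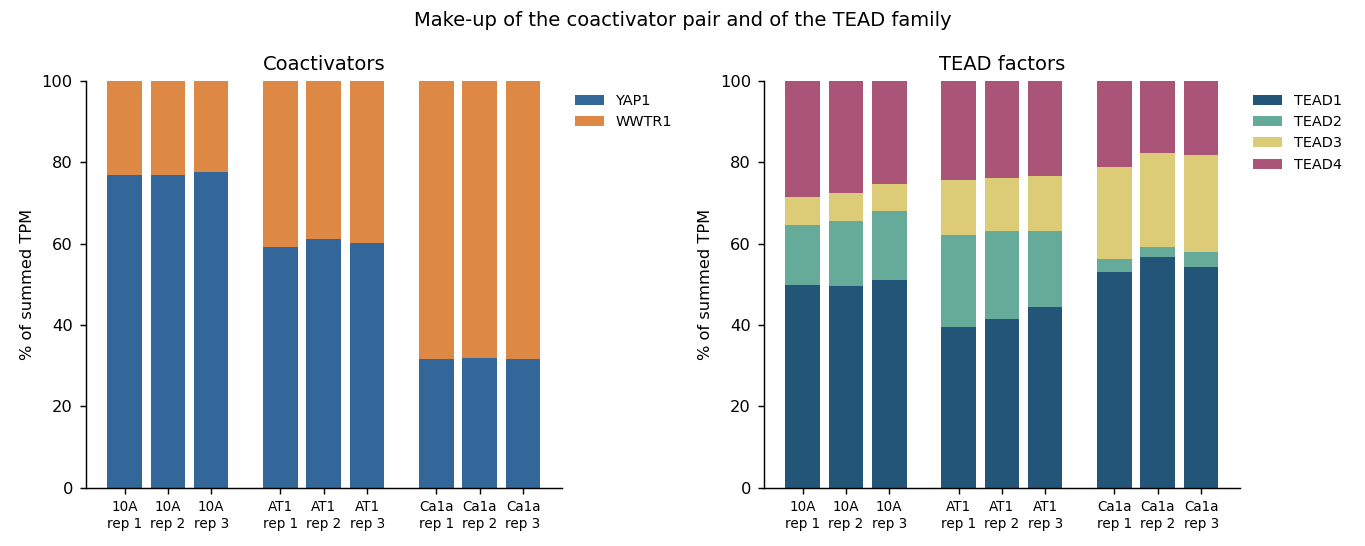
Share of summed TPM (y axis, percent) held by YAP1 and WWTR1 (left) and by the 4 TEAD genes (right) in each of the 9 libraries, grouped by line. The YAP1 share dropped from 77.1% to 31.7% on average between MCF10A and MCF10Ca1a, and the TEAD2 share was 3.08% in MCF10Ca1a against 15.9% and 20.9% in MCF10A and MCF10AT1.

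Among the DNA-binding factors TEAD1 was the most abundant in every library and was called in no comparison. TEAD1 measured 122, 110.5 and 107 CPM in MCF10A, 112, 113 and 126 CPM in MCF10AT1, and 113, 113 and 108 CPM in MCF10Ca1a. All lines overlapped. Its log2 changes were 0.04 (SE 0.0616, edgeR adjusted p = 0.552), -0.07 (SE 0.0622, adjusted p = 0.313) and -0.03 (SE 0.0622, adjusted p = 0.715) in MCF10AT1 against MCF10A, MCF10Ca1a against MCF10AT1 and MCF10Ca1a against MCF10A. A small difference between MCF10Ca1a and MCF10AT1 passed the threshold under 3 other settings, at -0.16 without the filter on low counts, -0.17 on length-scaled and -0.16 on scaled counts, and its sign was opposite on TPM.

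TEAD2 had the largest fold change among the 9 members and 3 comparisons tested. It measured 16.3, 15.6 and 16.4 CPM in MCF10A, 28.5, 27.1 and 24.5 CPM in MCF10AT1, and 2.71, 2.14 and 3.16 CPM in MCF10Ca1a. The level was thus highest in the intermediate line and lowest in MCF10Ca1a, with no overlap. TEAD2 was 1.66-fold higher in MCF10AT1 than in MCF10A (log2 0.73, SE 0.0782, edgeR adjusted p = 2.39e-06) and 9.98-fold lower in MCF10Ca1a than in MCF10AT1 (log2 -3.32, SE 0.104, edgeR adjusted p = 3.13e-12). Against MCF10A the fall was 2.59 on the log2 scale (edgeR adjusted p = 2.91e-11). On log2(TPM + 1), which shrinks low genes, the last falls were 2.45 and 1.93.

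TEAD3 rose in the order of the lines. Its libraries held 11.1, 10.0 and 9.62 CPM in MCF10A, 25.2, 24.1 and 25.7 CPM in MCF10AT1, and 29.8, 28.7 and 31.5 CPM in MCF10Ca1a. Most of the difference lay at the step to MCF10AT1, where TEAD3 was 2.44-fold higher (log2 1.29, edgeR adjusted p = 8.18e-10), followed by 0.26 at the next step (adjusted p = 0.0013) and 1.55 over the span (adjusted p = 3.38e-11).

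TEAD4 held 24.1, 22.1 and 19.9 CPM in MCF10A, 23.8, 23.4 and 22.5 CPM in MCF10AT1, and 13.7, 11.6 and 12.9 CPM in MCF10Ca1a. MCF10A and MCF10AT1 overlapped, and their difference was 0.08 on the log2 scale (edgeR adjusted p = 0.377). MCF10Ca1a lay below both lines, by log2 values of -0.87 against MCF10AT1 (edgeR adjusted p = 1.71e-07) and -0.79 against MCF10A (adjusted p = 4.22e-07).

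The 4 TEAD genes together held 57.2 ± 7.14 TPM in MCF10A, 63.7 ± 0.546 in MCF10AT1 and 53.0 ± 1.37 in MCF10Ca1a (SD, n = 3). TEAD1 contributed 50.2%, 41.8% and 54.6% of that sum. TEAD3 grew from 6.87% to 13.5% and 23.3%, and TEAD4 went from 27.1% to 23.8% and 18.9%. In MCF10Ca1a TEAD3 therefore ranked above TEAD4 and TEAD2, whereas in MCF10A it was the least abundant of the family.

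The target genes did not move together. CCN2, which encodes the matricellular protein CTGF and is among the most used reporters of YAP and TEAD activity, held 26.2, 23.8 and 24.3 CPM in MCF10A, 62.6, 64.5 and 63.1 CPM in MCF10AT1, and 13.6, 13.7 and 13.7 CPM in MCF10Ca1a. The spread within MCF10AT1 and MCF10Ca1a was narrow and the lines did not overlap. CCN2 was 2.56-fold higher in MCF10AT1 than in MCF10A (log2 1.36, SE 0.0493, edgeR adjusted p = 4.08e-11). It was 4.63-fold lower in MCF10Ca1a than in MCF10AT1 (log2 -2.21, SE 0.0542, edgeR adjusted p = 3.79e-13) and below MCF10A as well (log2 -0.86, adjusted p = 3.60e-09).

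CCN1, which encodes the related secreted protein CYR61, held 63.3, 57.1 and 53.0 CPM in MCF10A, 63.9, 64.6 and 62.9 CPM in MCF10AT1, and 39.1, 36.0 and 38.8 CPM in MCF10Ca1a. MCF10A replicate 1 reached into the MCF10AT1 range, and the difference between these lines was 0.14 (SE 0.0620, edgeR adjusted p = 0.0604). Without that library it was 0.21 and called (adjusted p = 0.00115). MCF10Ca1a lay below both lines, with log2 changes of -0.75 against MCF10AT1 (edgeR adjusted p = 1.02e-07) and -0.61 against MCF10A (adjusted p = 8.84e-07). CCN1 and CCN2 thus shared the direction of the last step, while the call of CCN1 at the step to MCF10AT1 depended on scaling, filter and libraries. On log2(TPM + 1) that difference of CCN1 was -0.00 (limma adjusted p = 0.984).

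AMOTL2, a membrane-associated angiomotin family protein that binds YAP and holds it back, moved the other way at the last step. It held 73.4, 62.1 and 58.7 CPM in MCF10A, 53.0, 55.5 and 54.5 CPM in MCF10AT1, and 139, 134 and 144 CPM in MCF10Ca1a. It was slightly lower in MCF10AT1 than in MCF10A (log2 -0.25, edgeR adjusted p = 0.00793). AMOTL2 was 2.56-fold higher in MCF10Ca1a than in MCF10AT1 (log2 1.35, edgeR adjusted p = 6.93e-10) and 2.15-fold higher than in MCF10A (log2 1.10, adjusted p = 4.50e-09).

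ANKRD1, a nuclear ankyrin-repeat protein and a strong YAP target in many cells, was barely detected. It had 2, 8 and 10 counts in the MCF10A libraries, 6, 6 and 4 counts in MCF10AT1, and 0, 0 and 1 counts in the shallower MCF10Ca1a libraries. Counts up to 3 were taken as the limit that a count of 0 allows, which corresponds to 0.0838 to 0.0891 CPM in MCF10Ca1a. MCF10Ca1a therefore lay at or under that limit, and no fold change is given; these limits cover counting error only.

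**Figure D3:**
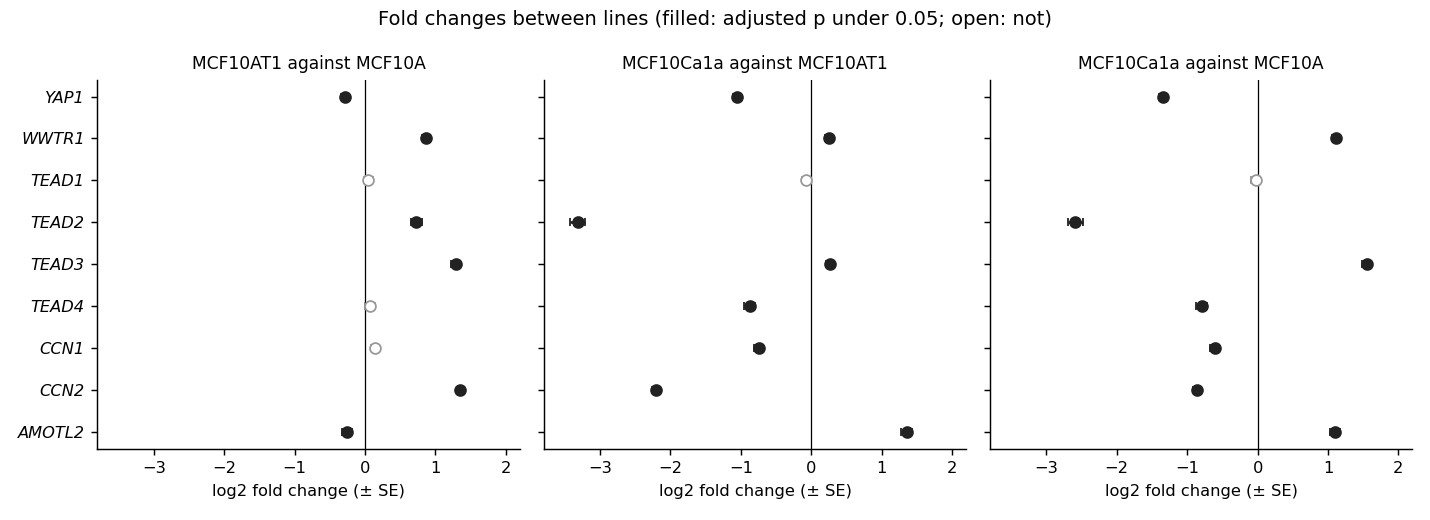
Log2 fold change (x axis) with its standard error for the 9 members tested in each of the 3 comparisons, from edgeR's quasi-likelihood test; filled points have an adjusted p under 0.05 and open points do not. WWTR1 and TEAD3 were higher and YAP1 lower in all comparisons, while TEAD2 and CCN2 were higher in MCF10AT1 against MCF10A and lower in the others.

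In order of TPM, the members ranked differently in each line. In MCF10A YAP1 led with 93.4 ± 10.3 TPM, followed by CCN1 with 40.6 ± 6.57, then TEAD1 with 28.7 ± 3.36 and WWTR1 with 27.7 ± 3.58 (SD, n = 3), the last a pair whose ranges overlapped. AMOTL2, CCN2 and TEAD4 came next at 19.5, 18.1 and 15.6 TPM with each neighbour overlapping, ahead of TEAD2 at 9.02 and TEAD3 at 3.93. In MCF10AT1 the order began with YAP1 at 68.1 and WWTR1 at 45.2 TPM. CCN2 at 41.8 and CCN1 at 40.2 overlapped, TEAD1 stood at 26.6, TEAD4, AMOTL2 and TEAD2 overlapped in turn at 15.2, 14.7 and 13.3, and TEAD3 followed at 8.60. In MCF10Ca1a WWTR1 led with 84.6 ± 1.84 TPM, followed by AMOTL2 at 44.4 and YAP1 at 39.4. CCN1 at 29.4 and TEAD1 at 28.95 overlapped there, as did CCN2 at 10.7 and TEAD4 at 10.1 below TEAD3 at 12.4, and TEAD2 was at 1.64. ANKRD1 was last in each line, at most 0.106 TPM in any library.

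The make-up of each gene by transcript was read from the deposited transcript counts and TPM, with transcript names and structures from GENCODE 29 on GRCh38. Of 71 member transcripts deposited, 67 were found there and 48 in the same version. The share of a transcript in its gene was tested with limma on the log2 ratio of its count to the rest of the gene, over 77143 transcripts. In MCF10AT1 against MCF10A limma called 0 of 43 member transcripts tested (2 at an unadjusted p under 0.05, and 1 called without MCF10A replicate 3), against 1.46% of all transcripts. In MCF10Ca1a 11 were called against MCF10AT1 and 9 against MCF10A, in CCN1, WWTR1, TEAD1 and YAP1 each time, against 12.5% and 17.2% of all transcripts. The first of these counts was not stable: it ran from 6 to 13 when 1 library was left out, with 7, 7 and 6 without MCF10AT1 replicate 1, 2 and 3 and 7 without MCF10Ca1a replicate 1, and was 7 with a replicate block. How reads were divided between transcripts is an estimate whose uncertainty was not used here.

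WWTR1-201, the main coding transcript, held 92.2% ± 2.73 of the gene's TPM in MCF10A and 92.3% ± 3.46 in MCF10AT1, but 66.1% ± 0.345 in MCF10Ca1a (SD, n = 3). The log2 ratio to the rest of the gene fell by 2.95 against MCF10AT1 (limma adjusted p = 0.00649) and by 2.79 against MCF10A (adjusted p = 0.00603). WWTR1-212, a short transcript annotated for nonsense-mediated decay, took up much of the difference in TPM. Its estimated counts were 0 in all MCF10A libraries, 76.8, 0 and 0 in MCF10AT1, and between 200 and 223 in the MCF10Ca1a libraries, a share of 21.3% ± 2.08 of WWTR1 TPM there. That share is per length and far larger than the share of counts. In the same libraries the whole gene had 4832 to 5325 counts and WWTR1-201 had 4443 to 4918. WWTR1-212 has 4 exons at the 3′ end of the gene. No other annotated WWTR1 transcript has an exon with the same start and end as its first, of 51 bases at chr3:149540216-149540266. Overlap with exons of other ends was not examined, so this does not show a sequence found in WWTR1-212 alone. Its call was not firm: the limma adjusted p was 0.0487 against MCF10AT1 and 0.0194 against MCF10A. Against MCF10A it ran from 0.0507 to 0.0579 when a library of either line was left out, and against MCF10AT1 the call was lost without each library but MCF10AT1 replicate 1. The minor transcript WWTR1-206, annotated as coding, was also called in both comparisons of MCF10Ca1a. It had 73, 32 and 94 estimated counts there, 25, 17 and 27 in MCF10AT1, and 11, 6 and 8 in MCF10A. WWTR1-205, annotated for nonsense-mediated decay, was called against MCF10AT1 only. It had 55, 44 and 25 in MCF10Ca1a, 0 in each MCF10AT1 library, and 19, 50 and 0 in MCF10A.

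CYR61-201, a transcript of CCN1 annotated as coding, held 75.8% ± 2.78, 78.4% ± 2.31 and 93.7% ± 3.52 of the gene's TPM in MCF10A, MCF10AT1 and MCF10Ca1a (SD, n = 3). Its ratio to the rest of the gene was higher in MCF10Ca1a by 2.17 on the log2 scale against MCF10AT1 (limma adjusted p = 0.0161) and by 2.39 against MCF10A (adjusted p = 0.00839). The first of these was not called without MCF10AT1 replicate 1 (adjusted p = 0.0556) or replicate 3 (adjusted p = 0.0568). The transcript itself averaged 30.9, 31.5 and 27.6 TPM in the 3 lines.

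**Figure D4:**
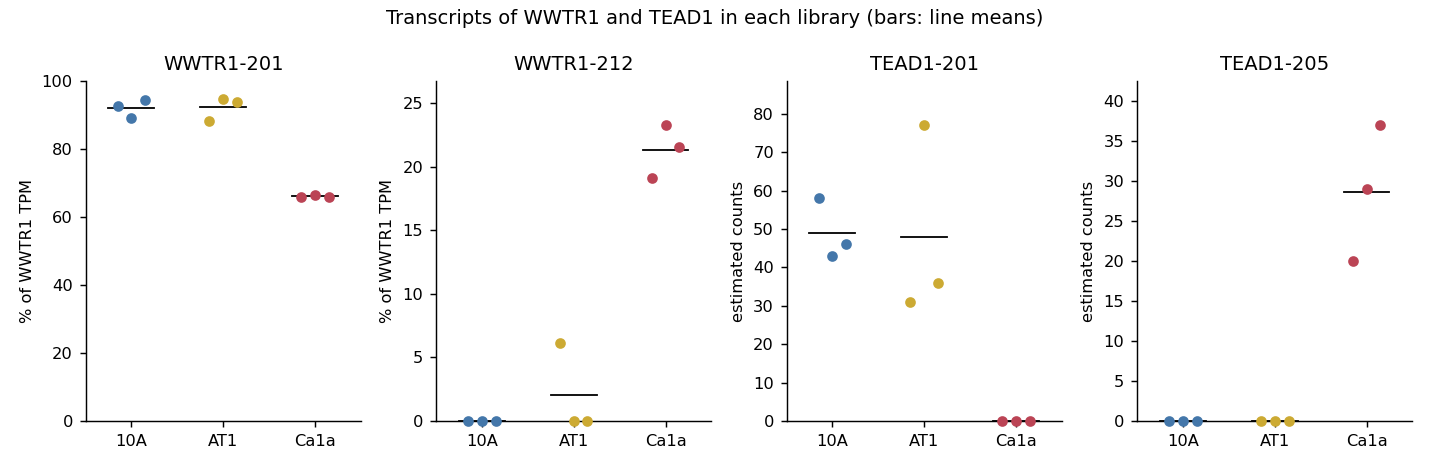
Share of WWTR1 TPM (percent) held by WWTR1-201 and WWTR1-212, and estimated counts of TEAD1-201 and TEAD1-205, in each library; points are libraries and bars are means of 3. MCF10Ca1a differs from the other lines in each panel, and 1 library of MCF10AT1 also held WWTR1-212.

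TEAD1 was not called as a gene, yet a pair of its minor transcripts was counted in some lines and at 0 in others; they were chosen after their values were seen. TEAD1-201 and TEAD1-205 differ in the annotation by a single coding exon of 12 bases at chr11:12878889-12878900, present in TEAD1-201 alone and shown in capitals with 15 bases on each side.
TEAD1-201: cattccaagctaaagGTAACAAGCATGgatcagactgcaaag
TEAD1-205: cattccaagctaaaggatcagactgcaaag
The estimated counts of TEAD1-201 were 58, 43 and 46 in MCF10A, 31, 77 and 36 in MCF10AT1, and 0 in each library of MCF10Ca1a. TEAD1-205 was the reverse, with 0 in each library of MCF10A and MCF10AT1 and 20, 29 and 37 in MCF10Ca1a. These counts are a description of the pair as chosen, and no test is given for it. Both transcripts are among those counted as called in MCF10Ca1a above, so the pair adds nothing to that count. Most TEAD1 RNA across this junction was assigned to TEAD1-206, which also lacks the exon, so the share of TPM with the exon was 4.26% ± 0.628 in MCF10A, 4.06% ± 2.29 in MCF10AT1 and 0% in MCF10Ca1a (SD, n = 3). The deposited versions of TEAD1-205 and TEAD1-206 are later than those in GENCODE 29, so their structures are those of the annotation used here.

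YAP1 kept its main transcript, YAP1-201, at 50.3% ± 0.585, 50.3% ± 1.67 and 53.7% ± 3.20 of its TPM in the 3 lines (SD, n = 3). The exon of 114 bases at chr11:102186018-102186131, which codes for the second of the WW domains by which YAP binds partner proteins, was carried by 79.5% ± 0.699, 75.7% ± 0.666 and 75.1% ± 2.18 of the TPM that could hold it, with MCF10A above the range of the others and the difference not tested. The exon of 48 bases at chr11:102209517-102209564 was carried by 70.6% ± 2.68, 75.7% ± 1.65 and 75.0% ± 7.65, with MCF10A below the range of MCF10AT1, MCF10Ca1a overlapping with both, and no test of the difference. YAP1-208, another minor transcript chosen after its values were seen, had 260, 182 and 287 estimated counts in MCF10A. It had 93, 152 and 118 in MCF10AT1 and 0 in each MCF10Ca1a library. It is likewise among those counted as called above, and no test is given for it here.

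The wider pathway was read from lists of genes around the members, by counts and medians only. The same over all genes tested was 29.8% higher and 31.8% lower (median log2 -0.00) in MCF10AT1 against MCF10A, 38.0% and 40.3% (median -0.04) in MCF10Ca1a against MCF10AT1, and 39.0% and 41.9% (median -0.05) in MCF10Ca1a against MCF10A. The counts of each list stand beside these shares and were not tested against them. Of 27 upstream Hippo genes, 8 were higher and 13 lower in MCF10AT1 against MCF10A (median log2 -0.14), 10 and 10 in MCF10Ca1a against MCF10AT1 (median 0.03), and 15 and 11 in MCF10Ca1a against MCF10A (median 0.28). STK3, which encodes the kinase MST2, rose most at the step to MCF10AT1 among those with enough counts, from 24.2 ± 1.41 to 40.3 ± 1.63 CPM (log2 0.74, edgeR adjusted p = 1.17e-07), and was at 41.3 ± 2.09 CPM in MCF10Ca1a (SD, n = 3; log2 0.77 against MCF10A, adjusted p = 3.07e-08). FAT4, a giant cadherin, fell from 11.4 to 5.12 CPM at that step (log2 -1.16, edgeR adjusted p = 9.83e-08). At the step to MCF10Ca1a PTPN14, a phosphatase that binds YAP, rose from 72.9 to 160.4 CPM (log2 1.14, edgeR adjusted p = 3.69e-09), and WTIP, a LIM protein that binds LATS kinases, fell from 4.47 to 0.853 CPM (log2 -2.38, adjusted p = 4.87e-09). WTIP fell by 2.72 over the span (edgeR adjusted p = 7.88e-10). Its falls ranged to -3.21 and -3.48 on length-scaled counts and to -1.49 and -1.80 on log2(TPM + 1).

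A list of 18 further genes often used as a YAP target signature, written with earlier results of these data known, was split as well; over all genes tested the medians were -0.00, -0.04 and -0.05 and the called shares 61.6%, 78.4% and 80.9%. In MCF10AT1 against MCF10A 7 were higher and 7 lower (median log2 0.08), in MCF10Ca1a against MCF10AT1 11 and 6 (median 0.52), and in MCF10Ca1a against MCF10A 9 and 6 (median 0.21). PTPN14 and LATS2 stand in this list and in the upstream list. IGFBP3, a secreted binder of insulin-like growth factors, rose in MCF10AT1 from 1.01 ± 0.0700 to 8.35 ± 0.646 CPM and stood at 21.8 ± 1.28 CPM in MCF10Ca1a (SD, n = 3), log2 changes of 3.04 and 4.43 against MCF10A (edgeR adjusted p = 1.47e-11 and 7.61e-14). NUAK2, a kinase, fell from 13.7 to 1.44 CPM in MCF10AT1 (log2 -3.24, edgeR adjusted p = 1.95e-11). At the step to MCF10Ca1a CCDC80, a matrix protein, rose from 12.6 to 50.9 CPM (log2 2.01, edgeR adjusted p = 1.97e-10) and FJX1 fell from 45.8 to 6.51 CPM (log2 -2.81, adjusted p = 2.31e-12). RBMS3, an RNA-binding protein, was 6.13-fold lower in MCF10Ca1a than in MCF10A (edgeR adjusted p = 6.27e-11). On log2(TPM + 1) the changes of IGFBP3 were 1.80 and 3.27, of NUAK2 -1.996 and of RBMS3 -1.13, and CCDC80 reached 2.60 on log2(TPM + 0.1).

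Relatives of the members included competitors for TEAD binding of the VGLL family and further CCN proteins. Of 10 listed, 6 passed the filter, beside called shares of 61.6%, 78.4% and 80.9% over all genes tested, and of these 1 was higher and 4 lower in MCF10AT1 against MCF10A (median log2 -0.85), 3 and 3 in MCF10Ca1a against MCF10AT1 (median -0.07), and 2 and 3 in MCF10Ca1a against MCF10A (median -1.04). CCN3, another matricellular protein, had 175 to 220 counts in MCF10A, 63 to 83 in MCF10AT1 and 0 to 3 in MCF10Ca1a, the last at the limit of detection. It was lower in MCF10AT1 than in MCF10A (log2 -1.35, edgeR adjusted p = 4.04e-05). VGLL4 rose from 23.1 to 38.8 CPM at the step to MCF10Ca1a (log2 0.75, edgeR adjusted p = 3.66e-08), and ANKRD2, the relative of ANKRD1, fell from 1.98 to 0.791 CPM (log2 -1.32, adjusted p = 2.75e-06; -0.49 on log2(TPM + 1)).

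CCN1, CCN2 and ANKRD1 are also known to respond to serum through SRF, and serum differed between the media, so a list of 14 serum response genes was read beside them. Of the 13 tested, 5 were higher and 6 lower in MCF10AT1 against MCF10A (median log2 -0.19), 5 and 6 in MCF10Ca1a against MCF10AT1 (median 0.03), and 5 and 8 in MCF10Ca1a against MCF10A (median -0.37), where 61.6%, 78.4% and 80.9% of all genes tested were called. EGR1, an immediate early transcription factor, rose from 112 ± 6.99 to 300.3 ± 6.13 CPM in MCF10AT1 (SD, n = 3; log2 1.43, edgeR adjusted p = 9.21e-11), the line with less serum and with the highest CCN2. FOS fell from 284 to 70.8 CPM between MCF10AT1 and MCF10Ca1a (log2 -2.01, edgeR adjusted p = 3.89e-13) while VCL rose from 185 to 324 CPM (log2 0.81, adjusted p = 3.18e-06). IER2 was higher in MCF10Ca1a than in MCF10A (log2 0.71, edgeR adjusted p = 3.91e-07). TAGLN and MYL9, which encode an actin-binding protein and a myosin light chain, were far lower outside MCF10A. TAGLN had 5464 to 6172 counts in MCF10A, 95 to 102 in MCF10AT1 and 52 to 69 in MCF10Ca1a (log2 -5.85 in MCF10AT1 against MCF10A, edgeR adjusted p = 1.45e-15; -5.27 on log2(TPM + 1)), and MYL9 had 968 to 1100, 33 to 50 and 0 to 1 counts. MYL9 and CCN3 stay at the low end of their lists when set to the limit of 3 counts, so the list medians do not move. The part of serum in the CCN2 values was not tested.

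**Figure D5:**
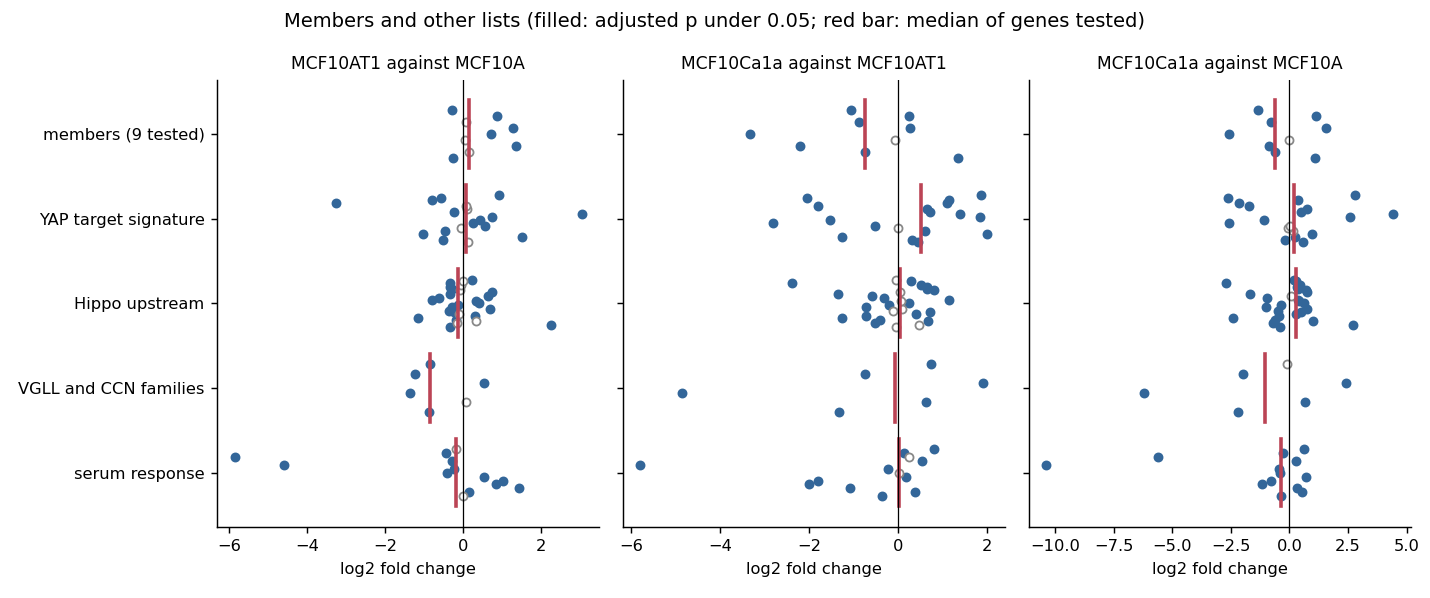
Log2 fold change (x axis, own range per panel) of each gene tested in the members and in 4 further lists; filled points have an adjusted p under 0.05, open points do not, and red bars are medians. Genes rose and fell in every list; the points farthest left in the comparisons of MCF10Ca1a are fitted values of MYL9 and CCN3, which had 0 to 3 counts in MCF10Ca1a and carry no fold bound.

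The genes whose CPM pattern lay nearest to each target were sought among 11998 genes by the root mean square difference of centred log2 CPM over the 9 libraries. Nearest to CCN2 were CNTNAP3B (0.08), C9orf40 (0.09) and TMEM63C (0.09), nearest to CCN1 CYB561 (0.03), CC2D2A (0.04) and LRRC59 (0.05), and nearest to AMOTL2 ABHD14B (0.03), HEATR5B (0.04) and FBRS (0.04), all in log2 units. For ANKRD1 the nearest were RANP1 (0.34), MTCYBP16 (0.34) and HAUS1 (0.35), a loose likeness to a gene near its detection limit. No member or listed target was among them. These are descriptions over 9 libraries of 3 lines, which share line and depth.

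By position the members are scattered over 7 chromosomes in GENCODE 29: YAP1 at chr11:102110461-102233423 and TEAD1 at chr11:12674591-12944483, WWTR1 at chr3:149517235-149736714 and AMOTL2 at chr3:134355874-134375479, CCN2 at chr6:131948176-131951373 and TEAD3 at chr6:35473597-35497076, CCN1 at chr1:85580761-85583962, ANKRD1 at chr10:90912096-90921276, TEAD4 at chr12:2959330-3040673 and TEAD2 at chr19:49340595-49362457. Libraries were stranded per the labels, while the counting setting is not given in the sources used here. Of the genes that overlap a member, WWTR1-AS1 averaged 6, 8.33 and 7 in the 3 lines, and DKKL1, opposite TEAD2, averaged 1, 3.67 and 10.7. The first is small beside the counts of WWTR1 (4177 to 8157). DKKL1 had its highest mean in MCF10Ca1a, where TEAD2 averaged 93.7 counts.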

How the data were processed

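RNA of MCF10A, MCF10AT1 and MCF10Ca1a was sequenced from stranded poly(A) libraries, 3 per line, per the labels' protocols. Salmon and hg38 are named in the submitters' processing notes; versions, annotation and settings are not given in the sources used here. The authors deposited estimated counts per gene and per transcript, length-scaled and scaled versions of the gene counts, and TPM values; their normalisation was used as deposited. The members and all lists were chosen with earlier results of these data known.

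After rounding of the estimated counts, genes were kept by filterByExpr of edgeR, grouped by line (at least 10 counts, total of 15). All 9 libraries entered 1 quasi-likelihood fit (edgeR 4.0.16, R 4.3.3) with TMM factors of 0.978 to 1.02 and Benjamini-Hochberg adjustment at 0.05; SE is the log2 change over the square root of F. Transcripts with a mean of at least 10 counts in a line were tested with limma 3.58.1 on log2 ratios with 0.5 added. Named list genes were, per list and comparison, the largest rise and the largest fall among called genes whose higher line averaged 100 counts or more; named transcripts held at least 10% of their gene's TPM in a line, others are marked. On simulated data with 200 of 17910 genes changed in MCF10AT1 against MCF10A, the edgeR test found 198 and added 7 false calls. It gave 0 calls where nothing changed. On simulated shares limma recovered 97 of 100 with 3 outside. The simulated counts were drawn independently with a fixed dispersion. Differing spread between lines and errors in dividing reads between transcripts were not simulated. The simulation therefore gives no error rate for these data. Replicates differed by more than sampling noise (chi-square per degree of freedom 2.42 to 68.3), and no libraries were merged. Alternatives were DESeq2 1.42.0 size factors and Wald test, upper-quartile factors, no filter, scaled and length-scaled counts, limma on log2(TPM + 1) and log2(TPM + 0.1), only the lines compared, a replicate block and each library left out; 1 more, WWTR1-201 alone, was added after the data were seen. Positions and transcript structures are GENCODE 29 on GRCh38, matched by unversioned identifier.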

Additional observations from a re-analysis of the deposited data

How the results depend on the processing

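Every member called in a comparison kept its call and sign under all 20 alternatives, and no called value reversed. CCN1 in MCF10AT1 against MCF10A was also called with upper-quartile factors (0.18), without the filter (0.16), with only the lines compared (0.17) and without MCF10A replicate 1; it was 0.08 and not called without MCF10A replicate 3, and -0.00 and not called with limma on log2(TPM + 1) and log2(TPM + 0.1). Without the filter ANKRD1 had adjusted p = 0.823, 0.0222 and 0.00827 in the 3 comparisons with edgeR, and 0.676, 0.0852 and 0.0275 with limma on log2(TPM + 1), from 0 to 10 counts a library. The serum response list had 7 called genes in MCF10AT1 against MCF10A on log2(TPM + 1) without a filter, in place of 11. With length-scaled counts, which are not per length, 2 of 10 members of MCF10AT1 kept the rank they had by TPM. Member transcripts with a changed share numbered 0 to 1 (1 without MCF10A replicate 3), 6 to 13 and 8 to 12 over the fits that leave out a library; those below 8 in MCF10Ca1a against MCF10AT1 came without any 1 MCF10AT1 library or without MCF10Ca1a replicate 1, and the 13 came without MCF10Ca1a replicate 2. With a replicate block the middle count was 7 in place of 11, and CYR61-201 and WWTR1-212 were not called there (limma adjusted p = 0.0518 and 0.0886). Replicate numbers did not pair the libraries: same-number deviations correlated at -0.0597 to 0.0451, and 1 of 9 libraries correlated best with its own number. The block changed no member's call. TPM settings moved 14 of 49 fold changes by over 1.5 times, 3 of them of members (WWTR1 once, TEAD2 in 2 comparisons). The lower depth of MCF10Ca1a limits ANKRD1, CCN3 and the minor transcripts.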
